A study of Homo sapiens with 2 samples.

Results

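The zinc-finger gene cluster at 19q13.12 is a stretch of 30 neighbouring genes on the long arm of chromosome 19, from ZNF565 to ZNF573. Its expression was compared between A549/DDP and A549. A549 is a human lung adenocarcinoma cell line, and A549/DDP is the cisplatin-resistant line that was established from it. Both lines were in conventional culture and were detached with trypsin before RNA extraction, and the labels name no drug treatment before harvest. The free text of the A549/DDP sample also mentions overexpression of ZNF300, which its other labels do not. RNA of each line was hybridized to 1 HG-U133 Plus 2.0 array, so the series holds 2 arrays and no value has a replicate. The genes were chosen by position, as a block that had been seen to have lower signals on the A549/DDP array in these same data, and the differences below are therefore a description, with no test and no p-value. A549/DDP stands here as 1 derived line, and a property of the line cannot be told apart from a property of its resistance.

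Of the 30 genes, 28 were read by at least 1 probe set assigned to a single gene, among 19775 genes measured in all. ZNF260 and ZNF790 had no such probe set and are not analysed further. A gene took the probe set with the highest mean of both arrays. Expressed here means a signal on 1 or both arrays at or over a floor, set at the median of each array (6.18 for A549/DDP and 6.22 for A549, log2 signal). A signal below the floor was replaced by it, so that the difference becomes a bound, written as "at least". In all, 21 of the 28 measured genes were expressed, and 7 were under the floor on both arrays. ZNF781 is listed as a transcribed pseudogene in RefSeq, and the other members are protein-coding.

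Genes of this kind encode C2H2 zinc-finger proteins, in which a row of zinc-holding fingers reads a DNA sequence. Most of them also carry a Krüppel-associated box (KRAB), which recruits the corepressor TRIM28 and, through it, the histone methyltransferase SETDB1 and heterochromatin proteins. Many silence transposable elements, and others regulate single genes or imprinted loci. They arose by repeated tandem duplication, which is why they lie side by side on chromosome 19 and why copies can resemble each other closely.

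The labels were checked on ZNF300, the zinc-finger gene on another chromosome that the study followed. Its log2 signal was 5.76 on the array labelled A549/DDP and 7.59 on the A549 array, at least 2.65-fold lower. That direction is opposite to the one the study gives for these lines, so directions are given for the arrays as labelled. Whether the labels of the 2 arrays were exchanged was not tested, and an exchange would reverse every direction given here. Of 6 epithelial markers 5 were expressed, 3 of them lower and 2 higher on the A549/DDP array. KRT7 (12.64 for A549/DDP and 12.71 for A549) was well above the floor on both arrays, as were KRT8 and KRT18. The higher ones were KRT8, by 2.22-fold, and KRT18, by 2.61-fold. CDH1 was under the floor on the A549/DDP array and over it on the A549 array (2.52 against 7.30), and so was EPCAM (4.68 against 7.05). KRT19 was below the floor in both lines. Of 7 alveolar type 2 genes measured, 5 were expressed, 4 of them higher and 1 lower on the A549/DDP array. For 3 of these only a bound was given, and 49.6% of all expressed genes were lower. Markers of other cell types were checked too, and 1 of 4 haematopoietic, 3 of 5 fibroblast and 1 of 5 endothelial genes measured were expressed. The expressed ones were CD3E (6.93 for A549/DDP and 5.72 for A549), COL1A1 (9.77 for A549/DDP and 8.79 for A549) and KDR (7.67 for A549/DDP and 6.65 for A549), with COL1A2 (6.26 for A549/DDP and 5.74 for A549) and DCN (6.11 for A549/DDP and 6.59 for A549). Of these, DCN was lower on the A549/DDP array and the others were higher. For CD3E, COL1A2 and DCN 1 array was under the floor. PTPRC, SPI1, PDGFRB, CDH5 and VWF were among those under the floor on both arrays. The part of these markers in the differences below was not tested.

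Of the genes of the cluster that were expressed, most had lower signals on the A549/DDP array. Of the 21, 19 were lower and 2 were higher, whereas 49.6% of all 13159 expressed genes were lower. The median log2 difference was -1.04, a 2.05-fold lower signal, beside 0.00 over all expressed genes. In ZNF585A, ZNF420, ZNF573 and ZNF585B, 4 genes, the signal was lower by 3-fold or more (2.18% of all expressed genes), and in 0 it was higher by that much (2.14%). At a 2-fold line the count was 12, beside 7.40% of all expressed genes. Among 8254 expressed genes with signals in the range of the members other than ZNF146, 50.8% were lower, and 2.56% lower by 3-fold or more. Since the genes were picked for this, nothing is read from the gap to the background. There were 5 genes that passed the floor only through the A549 array and 1 only through the A549/DDP array, and these had to differ. The other 15 were above it on both, of which 14 were lower, beside 49.2% of the 11148 genes above the floor on both arrays.

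**Figure D1:**
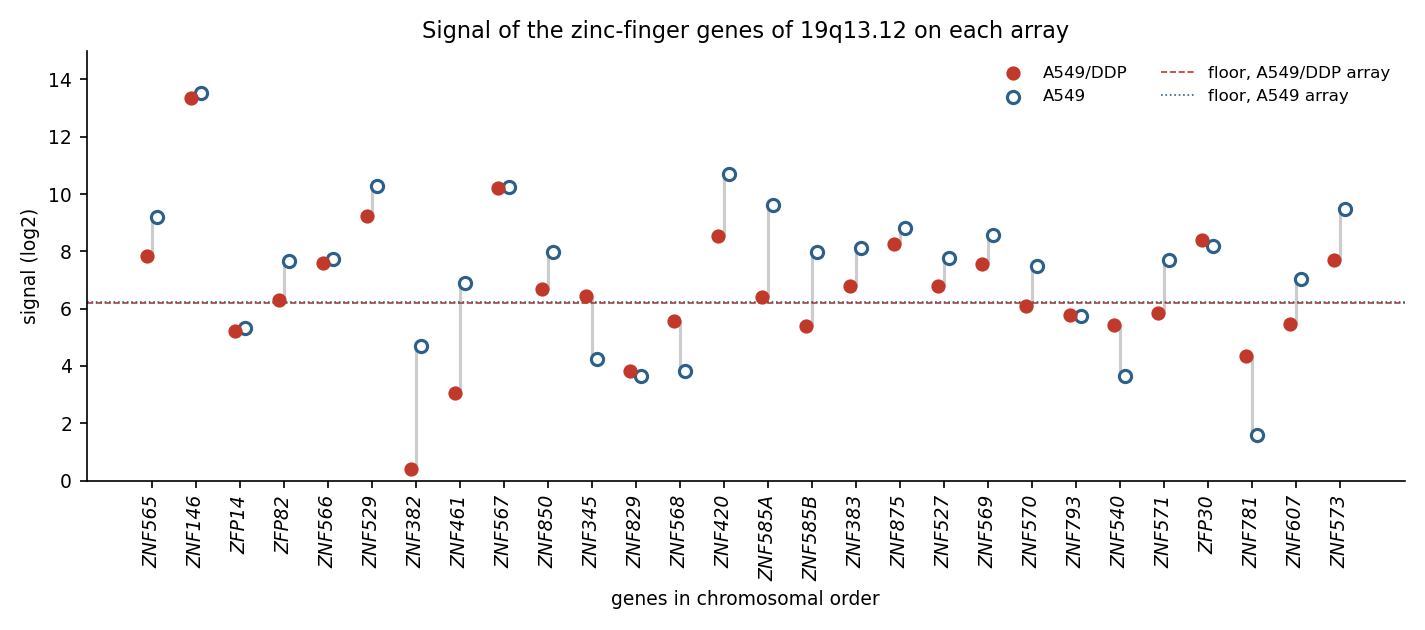
Log2 signal of the 28 measured genes in chromosomal order on the A549/DDP array (filled red) and the A549 array (open blue), 1 array each, with the floor of each array as a line. For 19 of the 21 genes above a floor the A549/DDP point lies under the A549 point, and the 7 genes under both floors show no common direction.

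A short sequence recurs in the promoters of 14 of the 27 genes whose promoter was available. The RefSeq promoter table (GRCh38.p14) gave 300-base windows, from 250 bases before to 50 after each start site, for 27 of the 30 genes, 48 in all since some genes have several start sites. Once the windows had been read, the word of 12 letters held by the most members on either strand was taken, which was ACTACATTTCCC, found in 11 genes (the next words, 4 in number and each overlapping it, were in 9). It was then searched as ACTACANNTCCC, with both middle letters free, on both strands of all windows. These letters resemble a part of the sites known for the factor ZNF143. A match was found in 15 of the 48 windows (31.2%), beside 1.75% of all 35116 windows and 9.61% of 666 windows of other zinc-finger genes. The exact word was in 22.9% of the member windows, 0.384% of all windows and 3.90% of those of other zinc-finger genes. Since the word was picked for being common among the members, its higher share there was in part set by that choice. A preset ZNF143 pattern, which is one form of ACTACANNTCCC, was in 1 of the 48 (2.08%). It was in 0.943% of all windows and 3.75% of those of other zinc-finger genes. Some windows overlap, and the matches came from 14 distinct places. These are shown with 8 bases on each side, so that the likeness beyond the searched letters, in capitals, can be seen, and the strand is the one on which the letters read 5′ to 3′.
ZNF565 (chr19:36214716-36214727, minus strand): agctctggACTACAATTCCCagagccca
ZNF146 (chr19:36214973-36214984, minus strand): ggccttggACTACATTTCCCttgaggct
ZNF260 (chr19:36528382-36528393, plus strand): gagggtagACTACATTTCCCagaaggtt
ZNF567 (chr19:36687490-36687501, minus strand): ggccttggACTACATTTCCCacaggcgc
ZNF850 (chr19:36772883-36772894, minus strand): ggctctggACTACATTTCCCagaggatc
ZNF790 (chr19:36838439-36838450, minus strand): ggctccggACTACATTTCCCagagtgca
ZNF790 and ZNF345 (chr19:36850790-36850801, plus strand): ctttctggACTACACTTCCCagaagcct
ZNF829 and ZNF568 (chr19:36916091-36916102, minus strand): cgctctggACTACATTTCCCagagggcc
ZNF420 (chr19:37078340-37078351, plus strand): agcgctggACTACATTTCCCagaggcac
ZNF420 (chr19:37078377-37078388, plus strand): agcgctggACTACATTTCCCagaggcac
ZNF527 (chr19:37371007-37371018, minus strand): atcgttgaACTACATCTCCCagagaacc
ZNF569 (chr19:37467450-37467461, plus strand): tgcgccgaACTACATTTCCCagaggcct
ZNF540 (chr19:37594821-37594832, minus strand): agttgtagACTACATTTCCCgaaggccc
ZNF573 (chr19:37779607-37779618, minus strand): aggcttaaACTACATTTCCCagagggca
Of the 14 places 11 continue with the letters ag, and both places of ZNF420 are alike over the whole stretch shown. At ZNF790 and ZNF345, and at ZNF829 and ZNF568, the place lies in windows of both genes of a divergent pair. The 9 expressed genes that hold the element had a median difference of -1.03 and ranged from -2.13 to 0.21. The 11 expressed genes without it had a median of -1.04 and ranged from -3.20 to 0.23. A match is a description of letters and does not show that a factor binds.

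ZNF585A and ZNF585B are neighbouring, closely related copies in the middle of the cluster. ZNF585A had a log2 signal of 6.41 on the A549/DDP array and 9.61 on the A549 array, 9.19-fold lower. With the floor applied, this was the greatest difference among the expressed members. ZNF585B had 5.39 on the A549/DDP array and 7.97 on the A549 array, at least 3.44-fold lower. Because transcripts of such copies can bind each other's probes, the pair may not be separate measurements. Without ZNF585B, 3 of 20 genes were past the 3-fold line and the median was -1.03.

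ZNF420, which encodes a KRAB protein known as Apak and described as a repressor of p53-dependent apoptosis genes, lies just before them. Its log2 signal was 8.55 on the A549/DDP array and 10.69 on the A549 array, 4.39-fold lower. A second probe set of ZNF420 read 7.91 for A549/DDP and 8.94 for A549, a difference of -1.03, so the size of its change depends on the probe set. ZNF573, the last gene of the cluster, had 7.69 on the A549/DDP array and 9.49 on the A549 array, 3.48-fold lower. The other probe set of ZNF573 was under the floor on both arrays. Just outside the 3-fold threshold was ZNF571, at least 2.83-fold lower, with 5.84 on the A549/DDP array and 7.69 on the A549 array. Just inside it was ZNF585B.

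The promoters of the 4 genes past the 3-fold line, which differ most with the floor applied, are given because some of them hold the element and others do not. ZNF420 holds it at 2 places and ZNF573 at 1. ZNF585A and ZNF585B hold none, and each has CCGGAAG, a core of sites for ETS factors, close to the start site. The windows are written 5′ to 3′ on the strand of the gene, and capitals mark matches to ACTACANNTCCC or CCGGAAG on either strand.
ZNF420 promoter (chr19:37078183-37078482, plus strand): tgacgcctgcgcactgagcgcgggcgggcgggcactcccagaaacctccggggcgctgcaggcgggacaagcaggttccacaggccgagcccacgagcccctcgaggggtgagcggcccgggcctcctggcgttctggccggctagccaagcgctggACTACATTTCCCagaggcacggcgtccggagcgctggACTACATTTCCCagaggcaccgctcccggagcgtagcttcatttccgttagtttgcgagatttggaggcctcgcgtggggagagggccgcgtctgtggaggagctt
ZNF573 promoter (chr19:37779537-37779836, minus strand): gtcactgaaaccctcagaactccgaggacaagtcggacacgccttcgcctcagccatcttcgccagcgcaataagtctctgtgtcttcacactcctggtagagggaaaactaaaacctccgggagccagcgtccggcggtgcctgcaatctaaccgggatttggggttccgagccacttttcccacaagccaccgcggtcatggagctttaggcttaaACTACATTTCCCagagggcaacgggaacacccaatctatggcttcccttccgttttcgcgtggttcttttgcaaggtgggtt
ZNF585A promoter (chr19:37172646-37172945, minus strand): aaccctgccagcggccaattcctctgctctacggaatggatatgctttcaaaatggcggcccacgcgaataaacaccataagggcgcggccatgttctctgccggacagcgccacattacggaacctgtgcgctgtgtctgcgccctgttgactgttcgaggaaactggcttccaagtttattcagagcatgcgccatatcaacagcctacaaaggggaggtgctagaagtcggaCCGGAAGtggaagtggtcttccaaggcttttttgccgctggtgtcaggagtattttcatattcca
ZNF585B promoter (chr19:37210487-37210786, minus strand): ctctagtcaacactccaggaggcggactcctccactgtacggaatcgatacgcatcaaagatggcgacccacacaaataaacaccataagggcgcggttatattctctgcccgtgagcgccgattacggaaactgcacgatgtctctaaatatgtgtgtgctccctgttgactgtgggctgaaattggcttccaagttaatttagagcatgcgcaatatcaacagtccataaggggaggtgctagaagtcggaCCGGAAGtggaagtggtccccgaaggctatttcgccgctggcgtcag
In a global alignment the windows of ZNF585A and ZNF585B were 71.9% identical, beside a median of 47.8% over 345 pairs of member windows. CCGGAAG was in 25% of the member windows, 10.3% of all windows and 33.8% of those of other zinc-finger genes. The GC box GGGCGG was in 39.6% of the member windows, 45% of all windows and 61.4% of those of other zinc-finger genes. TATAAA was in 2.08% of the member windows and 11.5% of all windows. The median ratio of observed to expected CpG was 0.79 in the member windows, 0.58 in all windows and 0.80 in those of expressed genes.

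A group of 7 further genes was between 2-fold and 3-fold lower. ZNF565, the first gene of the cluster, had 7.83 on the A549/DDP array and 9.19 on the A549 array, 2.57-fold lower. ZFP82, a KRAB gene reported as silenced by methylation in tumours, had 6.30 on the A549/DDP array and 7.65 on the A549 array, 2.55-fold lower. ZNF383, a KRAB repressor studied in MAPK reporter assays, had 6.80 on the A549/DDP array and 8.13 on the A549 array, 2.52-fold lower. These 3 genes lie at different places in the cluster, with ZNF420 and both ZNF585 genes between ZFP82 and ZNF383. ZNF570 had 6.08 on the A549/DDP array and 7.49 on the A549 array, at least 2.48-fold lower. ZNF850 had 6.67 on the A549/DDP array and 7.97 on the A549 array, 2.46-fold lower. ZNF529 and ZNF569 were closest to the 2-fold line. ZNF529 had 9.24 on the A549/DDP array and 10.27 on the A549 array, 2.05-fold lower. ZNF569, whose KRAB protein has been studied as a repressor in MAPK reporter assays, had 7.54 on the A549/DDP array and 8.57 on the A549 array, 2.04-fold lower.

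Of the other 7 lower genes, 5 were lower by less than 2-fold, and for 2, ZNF607 and ZNF461, only a bound under 2-fold could be given. ZNF527 had 6.79 on the A549/DDP array and 7.75 on the A549 array, 1.95-fold lower. ZNF607 had 5.48 on the A549/DDP array and 7.03 on the A549 array, at least 1.80-fold lower with the floor and 2.94-fold without it. For ZNF461, which is also called GIOT-1 and was described as a gonadotropin-inducible repressor in the rat, the floor shortens the difference most. Its log2 signal was 3.05 on the A549/DDP array and 6.89 on the A549 array, at least 1.64-fold lower with the floor and -3.84 on the log2 scale without it. ZNF875, better known as HKR1 and described as inducible by platinum drugs in lung cancer, had 8.25 on the A549/DDP array and 8.80 on the A549 array, 1.46-fold lower. ZNF146, made almost only of zinc fingers and without a KRAB box, had 13.36 on the A549/DDP array and 13.54 on the A549 array, 1.13-fold lower. ZNF566 had 7.59 on the A549/DDP array and 7.72 on the A549 array, a difference of -0.13. ZNF567 had 10.20 on the A549/DDP array and 10.23 on the A549 array, a difference of -0.03, which turned to 0.01 after median centring of the arrays.

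The higher genes were ZFP30 and ZNF345. ZFP30, a KRAB gene studied in mouse airways and fat cells, had 8.40 on the A549/DDP array and 8.18 on the A549 array, 1.17-fold higher. ZNF345 had 6.43 on the A549/DDP array and 4.25 on the A549 array, a difference of at least 0.21 with the floor and 2.18 without it, so its size is not known. Both were read by _x_at probe sets, a kind that may cross-hybridize within gene families. Without probe sets of the _x_at and _s_at kinds, which takes out those of both higher genes, 19 members were expressed and all 19 were lower, beside 50% of all expressed genes.

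The 7 genes under the floor on both arrays did not share a direction, with 5 higher and 2 lower on the A549/DDP array before the floor was applied (50.3% of all measured genes were lower on that scale), and no fold is given for them. ZNF568, whose mouse counterpart silences a placental promoter of Igf2, is the member that the study carried in its panel of candidate genes. Its 5 probe sets read between 2.27 and 5.57 on the A549/DDP array and between 3.03 and 5.29 on the A549 array. Of these, 4 were higher and 1 was lower on the A549/DDP array, all under the floor. ZNF382, a KRAB repressor reported as silenced by methylation in several tumours, had 0.39 on the A549/DDP array and 4.69 on the A549 array. ZNF781 had 4.34 for A549/DDP and 1.59 for A549, and ZNF540 had 5.42 for A549/DDP and 3.66 for A549. ZFP14, ZNF793 and ZNF829 differed by -0.09, 0.04 and 0.18. MAS5 signals scatter widely at this brightness, so neither direction can be read here.

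Different probe sets of the same gene give a second look at the same RNA, though not a replicate. The 28 genes had 55 probe sets, of which 33 were above the floor on at least 1 array, 30 lower and 3 higher on the A549/DDP array, beside 49.2% lower over all such probe sets. Of the 33, 9 passed only through the A549 array and 2 only through the A549/DDP array, so that their direction was set by the filter. The remaining 22 were above the floor on both arrays, and 21 of them were lower and 1, of ZFP30, was higher. Their median difference was -1.03, beside 0.01 over all probe sets above the floor on both arrays, of which 49% were lower. In 6 genes at least 2 probe sets were above the floor on both arrays, and in all 6 each of these was lower. The share of all genes for which this holds was not computed, so nothing is read from this count. The 2 such probe sets of ZNF585A differed by -3.20 and -1.08, the 2 of ZFP82 by -1.35 and -0.64, and the 3 of ZNF567 by -0.53, -0.49 and -0.03. ZNF527 had 1 probe set above the floor on both arrays, and its other one, above it only on the A549/DDP array, differed by 0.48. Across all genes, probe sets of the same gene scattered with a median SD of 0.38 in this difference.

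**Figure D2:**
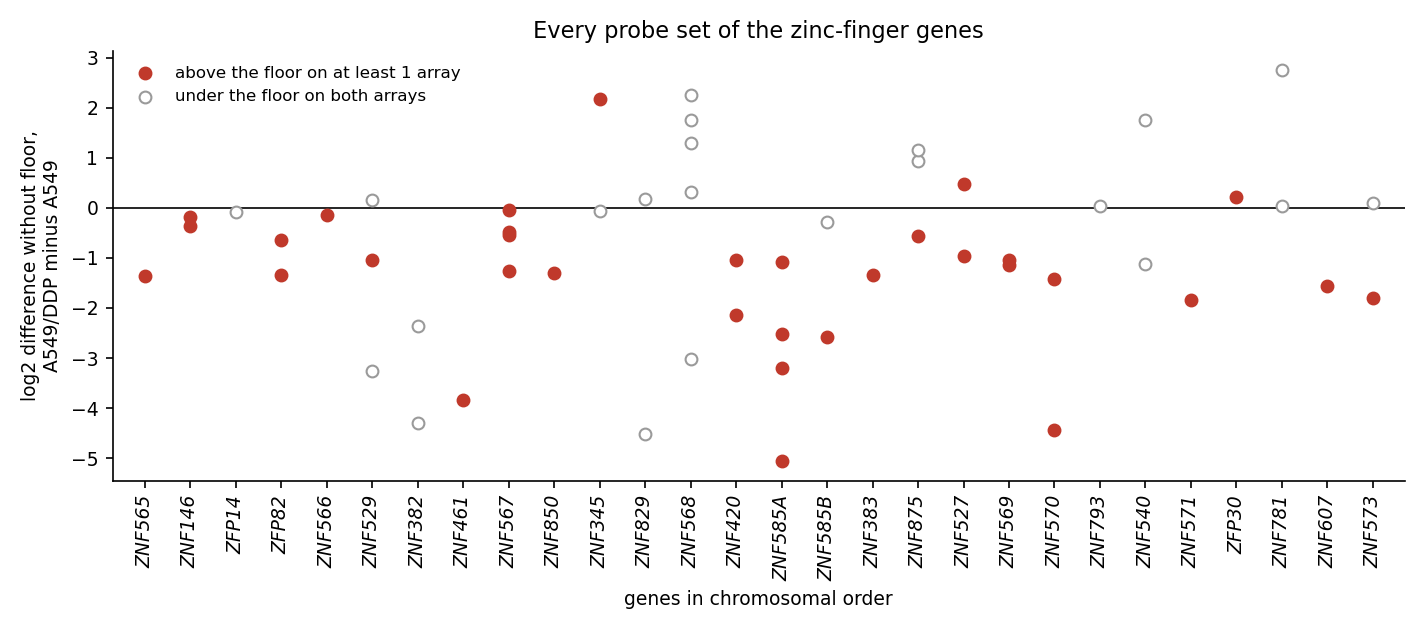
Log2 difference, A549/DDP minus A549 and without the floor, of each of the 55 probe sets, for the 28 genes in chromosomal order. Of the 33 probe sets above the floor on at least 1 array (filled) 30 lie under 0, 9 of them probe sets that passed only through the A549 array, whereas the open points, under the floor on both arrays, scatter to both sides.

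Lower signals of expressed members ran along most of the cluster, which had been picked as a lower block in these same data. Where the block ends was therefore in part set by that choice. Among expressed members in chromosomal order, the first 8, from ZNF565 to ZNF850, were all lower, then came ZNF345, then 9 in a row from ZNF420 to ZNF571 were lower, then ZFP30, and finally ZNF607 and ZNF573 were lower. The median was -0.87 for the first of these runs and -1.33 for the second. The 12 expressed members on the minus strand had a median of -1.17 and the 8 on the plus strand one of -0.76, while ZNF571 had no strand in the table used.

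The expressed neighbouring genes that are not zinc-finger genes were mostly not lower. The nearest neighbours, COX7A1 before the cluster and WDR87 after it, were under the floor on both arrays. TBCB, a cofactor of tubulin folding, had 12.67 on the A549/DDP array and 12.56 on the A549 array, and its 3 probe sets differed by 0.10, 0.21 and 0.50. CAPNS1, the small subunit of calpain, had 12.18 on the A549/DDP array and 11.75 on the A549 array, 1.35-fold higher. Both flanking genes were thus higher, by less than 2-fold. Of the 12 nearest such genes before the cluster, 8 were expressed, 2 of them lower and 6 higher, with a median of 0.17. Of the 12 nearest after it, 9 were expressed, 2 of them lower and 7 higher, with a median of 0.31. The greatest difference was a 1.97-fold higher signal of WDR62, a spindle pole protein, and the lowest was LRFN3, with a difference of -0.80. SIPA1L3, the nearest expressed gene after ZNF573, had 9.28 on the A549/DDP array and 8.73 on the A549 array, a difference of 0.55 that turned to -0.28 with the median over its probe sets and to -0.27 with the dimmest.

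**Figure D3:**
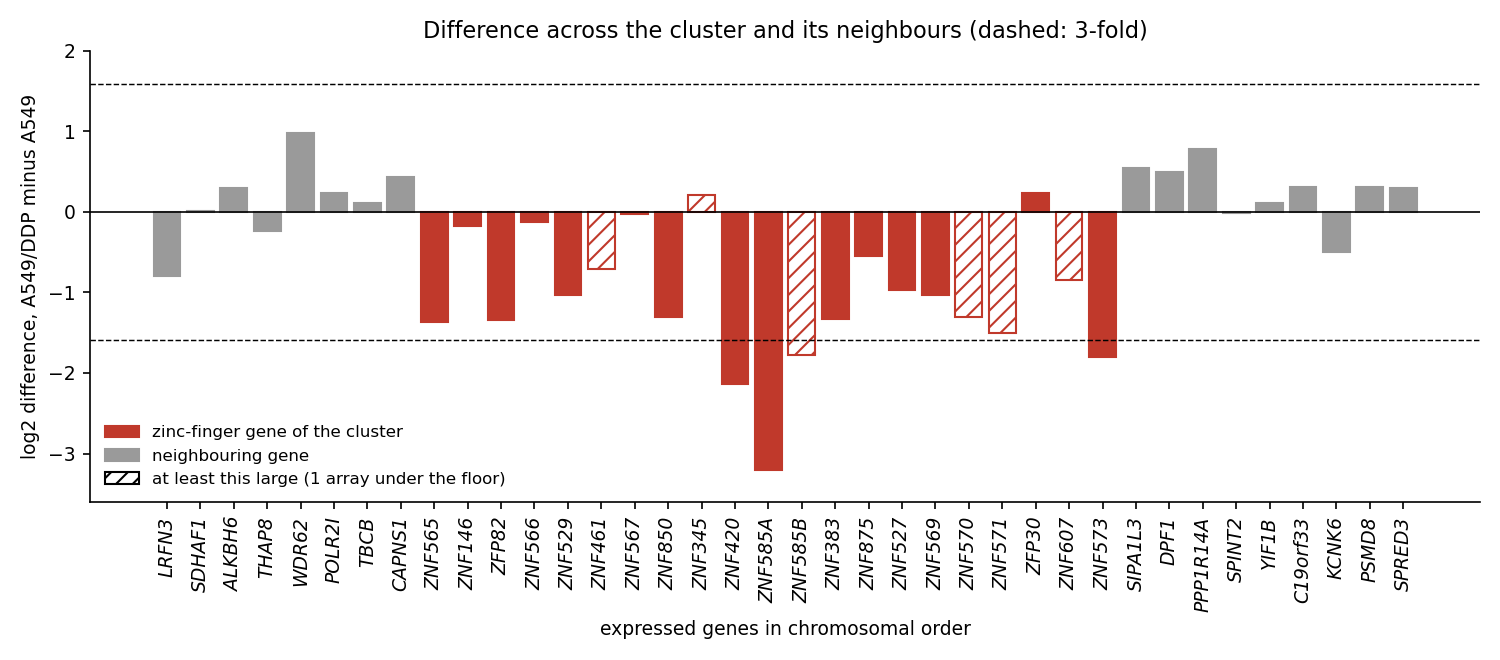
Log2 difference, A549/DDP minus A549, of the 21 expressed zinc-finger genes (red) and of the 17 expressed among the 12 nearest other genes on each side (grey), in chromosomal order, with dashed lines at 3-fold. Hatched bars are bounds, since 1 array was under the floor. The red bars point down except for ZNF345 and ZFP30, and 13 of the grey bars point up.

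Several neighbours in the cluster are transcribed in opposite directions from start sites that lie close together. In the RefSeq promoter table (GRCh38.p14), 6 such divergent pairs had start sites within 1000 bases, and in 3 of them both genes were expressed. ZNF569 and ZNF570, with start sites 328 bases apart, were both lower on the A549/DDP array, with differences of -1.03 and at least -1.31. In the other 2 pairs the differences of the brightest probe sets were unequal. ZNF565 was 2.57-fold lower whereas ZNF146, 22 bases away, was 1.13-fold lower. ZNF461 was at least 1.64-fold lower, while ZNF567, 97 bases away, differed by -0.03 on its brightest probe set and by between -0.49 and -1.26 on the other 3. ZNF565, ZNF567 and ZNF570 also have start sites outside the shared stretch, and the arrays do not show which start site was used. In the pair ZNF529 and ZNF382, with start sites 56 bases apart, ZNF382 was under the floor on both arrays. ZNF829 and ZNF568, 41 bases apart, were both under it, and ZNF790, 80 bases from ZNF345, was not measured. On the brightest probe sets the pairs of ZNF146 and of ZNF567 had unequal differences, whereas the pair of ZNF569 was lower in both genes. For ZNF461 and ZNF570 only bounds can be given. The upstream regions of ZNF146, ZNF567 and ZNF569, each overlapping that of its partner, are shown for these pairs. Each holds 250 bases before and 50 after the start site, 5′ to 3′. Capitals mark matches to ACTACANNTCCC or CCGGAAG on either strand, as before.
ZNF146 promoter (chr19:36214856-36215155, plus strand): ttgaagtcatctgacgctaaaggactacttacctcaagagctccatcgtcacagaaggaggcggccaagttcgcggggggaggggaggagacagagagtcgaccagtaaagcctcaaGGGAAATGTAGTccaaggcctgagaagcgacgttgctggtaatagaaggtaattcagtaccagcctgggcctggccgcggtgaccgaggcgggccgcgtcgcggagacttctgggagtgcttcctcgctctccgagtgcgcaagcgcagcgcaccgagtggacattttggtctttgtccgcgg
ZNF567 promoter (chr19:36666684-36666983, plus strand): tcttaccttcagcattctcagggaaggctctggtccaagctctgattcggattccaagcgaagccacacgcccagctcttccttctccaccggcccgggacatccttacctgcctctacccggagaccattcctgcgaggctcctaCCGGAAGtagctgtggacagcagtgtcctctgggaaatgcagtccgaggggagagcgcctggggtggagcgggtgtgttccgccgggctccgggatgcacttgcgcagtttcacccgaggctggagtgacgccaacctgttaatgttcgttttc
ZNF569 promoter (chr19:37467395-37467694, minus strand): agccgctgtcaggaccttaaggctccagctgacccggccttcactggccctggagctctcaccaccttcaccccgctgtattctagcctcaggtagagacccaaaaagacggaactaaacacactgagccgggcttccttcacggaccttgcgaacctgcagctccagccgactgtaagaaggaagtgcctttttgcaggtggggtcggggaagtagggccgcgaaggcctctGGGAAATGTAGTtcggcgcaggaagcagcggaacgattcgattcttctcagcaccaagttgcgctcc
The window of ZNF146 shares 121 bases with that of ZNF565, the window of ZNF567 shares 196 with that of ZNF461, and the window of ZNF569 shares 173 with that of ZNF570.

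**Figure D4:**
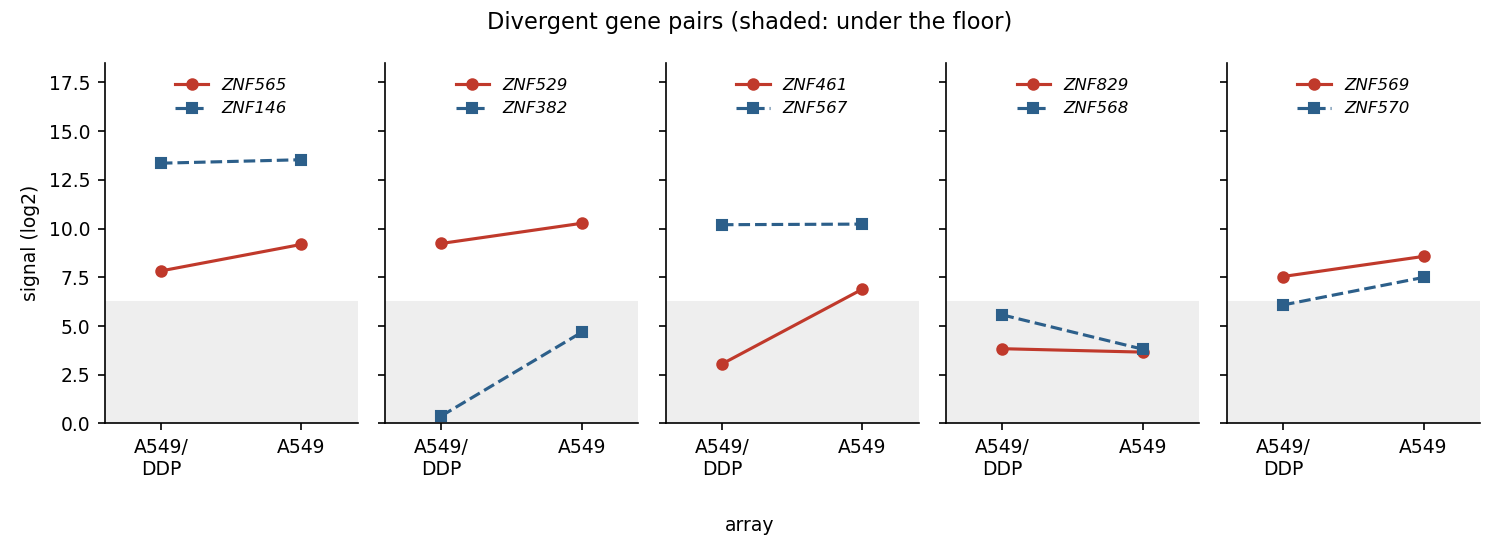
Log2 signal of both genes of each divergent pair with 2 measured genes, on the A549/DDP array (left) and the A549 array (right) of each panel, with the region under the floor shaded. The lines of ZNF569 and ZNF570 run nearly parallel, while ZNF146 and the brightest probe set of ZNF567 stay nearly level beside partners that are lower on the A549/DDP array.

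Other zinc-finger genes were compared in the same way. Over 388 expressed zinc-finger genes outside the cluster, 228 were lower (58.8%, beside 49.6% of all expressed genes), with a median of -0.13. Past the 3-fold line downward were 7 of them (1.8%, beside 2.18%). The 231 of them on other autosomes had a median of -0.06. On chromosome 19, runs of zinc-finger genes were formed from neighbours with at most 3 other protein-coding genes between them, and 6 runs had at least 10 expressed genes. The run from ZNF565 to ZNF573 had the lowest median of the 6, -1.04. Since it was picked as a lower block in these same data, that place was in part set by the choice. The run from ZNF577 to ZNF331 had a median of -0.45, with 14 of 18 expressed genes lower (77.8%) and 3 past the 3-fold line downward. That from ZNF787 to ZNF446 had a median of -0.41, with 35 of 44 lower (79.5%) and 1 past that line. The run from ZNF283 to ZNF180 had a median of -0.19. Both runs on the short arm, from ZNF627 to ZNF791 and from ZNF101 to ZNF254, went the other way, with medians of 0.44 and 0.45. The 725 expressed genes of chromosome 19 that are not zinc-finger genes had a median of 0.02. With 1 array per line, none of these differences between runs was tested.

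**Figure D5:**
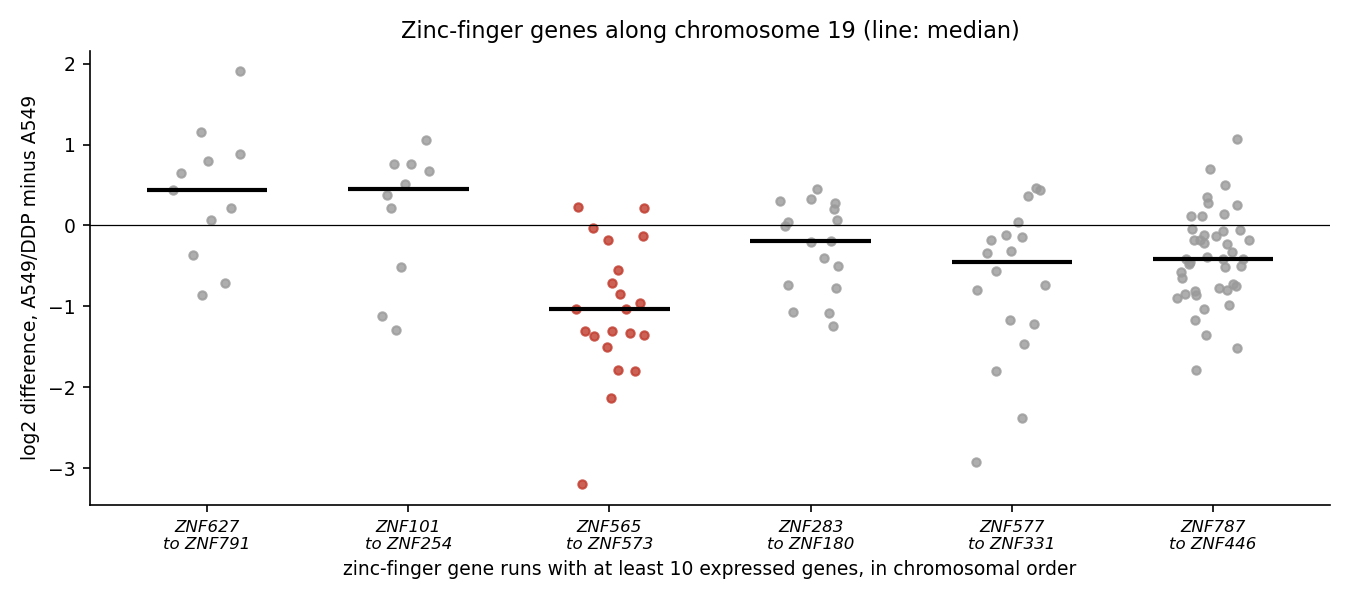
Log2 difference, A549/DDP minus A549, of each expressed gene in the 6 runs of zinc-finger genes on chromosome 19 with at least 10 expressed genes, in chromosomal order, with a line at the median. The run of the cluster (red), picked as a lower block in these same data, has the lowest median, -1.04, and the 2 runs at the left have medians above 0.

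The corepressor genes through which KRAB proteins act were spread to both sides. Of 22 corepressor genes listed, 20 were measured and expressed, 7 lower and 13 higher, with a median of 0.07 and 0 past 2-fold with the floor. Of all expressed genes 49.6% were lower, and 7.40% were lower by 2-fold or more. TRIM28 had 11.28 on the A549/DDP array and 10.94 on the A549 array, and SETDB1 had 8.46 on the A549/DDP array and 8.44 on the A549 array. The greatest differences were at least 0.83 in MTA2 (1.45 without the floor), a subunit of the NuRD complex, 0.69 in the heterochromatin protein gene CBX3 (1.17 without _x_at and _s_at probe sets, which is past 2-fold), -0.60 in MPHOSPH8, a subunit of the HUSH complex, and 0.51 in CBX5. The difference of MPHOSPH8 was -0.18 with the median over its probe sets. Of 17 genes that write, guide or remove DNA and histone methylation at such loci, 16 were expressed, 6 of them lower and 10 higher. The median was 0.34, and 3 genes were past the 3-fold line upward and 0 downward, beside 2.14% and 2.18% of all expressed genes. The greatest differences in this list were 3.07 in UHRF1 and 2.39 in HELLS, a chromatin remodeller, with 1.59 in the maintenance methyltransferase DNMT1. ATRX, a remodeller that is bound at zinc-finger gene clusters, had 10.27 on the A549/DDP array and 11.12 on the A549 array, a difference of -0.84. Their part in the lower signals of the cluster was not tested.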

How the data were processed

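Each line was measured once, on 1 array. The deposited log2 values, 1 per array for 54675 probe sets, came from MAS5 and affy according to the submitters' notes (no versions given), and from SCAN with UPC according to the published methods. The trimmed mean signal, 2% left out at each end, was 500.1 on both arrays and the lowest value was 0, as MAS5 signals have, so the values were taken without further scaling. MAS5 subtracts a mismatch signal, which widens the scatter of dim probe sets, and the number of arrays limits the precision. A second table names A549-LV5 and A549-ZNF300 in its header. By these names its 4 columns of signals and calls match the title of neither sample, and they were not used. Its other columns hold the authors' own comparison.

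A single gene was listed for 41097 probe sets, and 41043 were matched to current symbols through the gene ID (RefSeq, GRCh38.p14), which also gave gene order and promoter windows. Groups followed the sample titles. The genes named are the 30 members, the 12 nearest other genes on each side, ZNF300 and up to 4 genes per list. TRIM28, SETDB1 and the markers were named beyond that rule. Members and lists were chosen with earlier results of these data known. Alternatives were median centring, quantile normalization, loess (span 0.3, 3 iterations), other floors (none, or the 25th or 75th percentile), other choices of probe set, and 2-fold and 5-fold thresholds. Leaving out ZNF585B, expressed genes without a floor, and the element ACTACANNTCCC were added after the data were seen. Python 3.11.15, pandas 2.3.3, statsmodels 0.14.6 and Biopython 1.88 were used, and the steps were tested on simulated data.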

Additional observations from a re-analysis of the deposited data

How the results depend on the processing

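The median difference of the cluster stayed negative under every alternative tried, between -1.33 and -0.70. The count of 4 genes at least 3-fold lower was less stable. It was 7 of 28 without a floor, where 4 were at least 3-fold higher and 9.79% of all genes were at least 3-fold lower. It was 1 of 8 when the 75th percentile served as floor (1.46% of all genes), where 8 genes were lower (48%), 1 of 17 with the median over probe sets (2.01%), and 2 of 21 with the dimmest of the probe sets that passed the floor (1.99%). At a 2-fold threshold it was 12 (7.40% of all genes) and at 5-fold it was 1 (0.562%). Over 21 members and 170 values under alternatives, 25 moved by more than the scatter among probe sets of a gene (0.38) and 2 changed sign, ZNF567 (0.01 with median centring) and ZNF527 (0.08 with the dimmest probe set). Among the genes beside the cluster, SIPA1L3 changed sign with the median over probe sets (-0.28) and with the dimmest (-0.27), and SPINT2 with median centring (0.02). ZNF420 was -1.03 without _s_at probe sets, and ZNF585A was at least -0.53 with its dimmest. The cause of these changes was not tested. No paired analysis was possible because each line has 1 array.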
